A study of Mus musculus with 12 samples.

Results

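The 10 genes described here encode lipid droplet coat and fusion proteins (Cidea, Cidec and the perilipins Plin1 to Plin5) and proteins of the milk fat globule (Btn1a1, Xdh and Mfge8). They were chosen as a list, with earlier results of these data known, and are 10 of the 38924 genes counted. Bulk RNA was sequenced from sorted cells of C57BL/6 mice in 12 libraries, 2 in each of 6 groups. The Ucp1 line carried Ucp1-iCre and the Myf5 line carried Myf5-Cre, and all mice carried the ROSAmTmG reporter, which switches a membrane protein from tdTomato to GFP after recombination. GFP therefore records that a cell or its ancestor had the recombinase, not that Ucp1 or Myf5 was on at the time of the sort. The groups were GFP-positive myoepithelial cells of the Ucp1 line and of the Myf5 line at lactation day 10, GFP-negative myoepithelial cells of the same 2 lines at lactation day 10, and GFP-positive brown adipocytes of each line from virgin females aged 8 weeks. Myoepithelial cells were gated as lineage-negative, CD24-positive and CD29-high. Neither the age of the dams nor a surface marker for the brown adipocytes is stated. The design text gives 2 mice per group, and whether a library held 1 animal or a pool is not stated.

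Fat is stored in cells as droplets of triglyceride and cholesterol ester under a single layer of phospholipid that is coated by proteins. Perilipins sit on that surface and govern the access of lipases, while Cide proteins gather where droplets touch and promote the transfer of lipid from a smaller droplet into a larger one. In the lactating gland the luminal alveolar cells release droplets wrapped in apical plasma membrane. Butyrophilin (Btn1a1), xanthine oxidoreductase (Xdh) and Plin2 join droplet and membrane during this release, and Cidea in these cells is needed for normal secretion of milk lipid in mice. Myoepithelial cells are the contractile basal cells around the alveoli and do not themselves secrete milk. In brown adipocytes, Plin1, Plin5, Cidea and Cidec coat or fuse the many small droplets whose fatty acids fuel heat production.

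Library totals lay between 11027738 and 32956480 counts. Genes with a count were fewest in the labelled myoepithelial cells of the Ucp1 line, at 10909 and 10560, against up to 19794 in the other mammary libraries. The mitochondrial share was 0.648% to 2.45% of each mammary library, against 12.6% to 36.0% in brown adipocytes. The labels were checked against marker lists, as summed counts-per-million (CPM) scaled by trimmed-mean factors (TMM). Basal myoepithelial markers (10 genes) summed to 1553 to 5058 CPM in the GFP-positive mammary libraries and 9721 to 18659 CPM in the GFP-negative ones. Brown adipocytes had 25.2 to 200.2 CPM, with Krt5, Krt14 and Krt17 at 0 counts. In both Ucp1 GFP-positive libraries endothelial markers (5 genes) summed higher than basal ones, at 4960.0 and 7414 CPM against 1553 and 3384 CPM. In both Myf5 GFP-positive libraries fibroblast markers (6 genes) did, at 17735 and 9546 CPM against 3350 and 5058 CPM. In the GFP-negative libraries the basal sum was above those of both lists. One basal factor, Trp63, had 0 counts in 1 Ucp1 GFP-positive myoepithelial library. Milk protein messages (8 genes) summed to 18327 to 125557 CPM in the mammary libraries, and luminal markers (9 genes) to 62.7 to 674 CPM. The sort for basal cells thus held milk messages in every mammary library. Brown adipocyte markers (9 genes) summed to 4.59 to 59.1 CPM in the mammary libraries, against 2075 to 21528 CPM in brown adipocytes.

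Cidea (ENSMUSG00000024526, mm10 chromosome 18, 67343604 to 67367785, plus strand) was present in all 12 libraries. Its level was 137 and 184 CPM in Ucp1 GFP-positive myoepithelial cells, against 437 and 361 CPM in the GFP-negative cells of that line. In the Myf5 line it was 171 and 118 CPM in GFP-positive cells, against 601 and 355 CPM in GFP-negative cells. Ucp1 brown adipocytes had 815 and 2643 CPM, and Myf5 brown adipocytes had 3739.9 and 4101 CPM. From high to low the groups ran Myf5 brown, Ucp1 brown, then the GFP-negative groups, which overlapped, then the GFP-positive groups, which overlapped. Over both lines Cidea was lower in GFP-positive than in GFP-negative myoepithelial cells, at 152 ± 30.1 CPM against 438 ± 114 CPM (SD, n = 4 each), a log2 difference of -1.52 (SE 0.400, adjusted p = 0.0391, edgeR quasi-likelihood test over 16953 genes). All 4 GFP-positive libraries lay below all 4 GFP-negative ones, as was so for 7.54% of all tested genes. The median of all genes in this comparison was -0.44, so that the difference relative to that median was -1.08. With DESeq2's size factors in place of TMM the adjusted p was 0.0669, and leaving out 1 library moved it past 0.05 for every library except the second Ucp1 GFP-positive and either Ucp1 brown adipocyte library. In a fit on the 8 mammary libraries with the line as covariate, added after seeing the data, it was 0.339. In bulk samples, fewer cells of a type and less RNA per cell cannot be told apart.

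Cidec (ENSMUSG00000030278, mm10 chromosome 6, 113424634 to 113435760, minus strand) enlarges the droplets of white and brown fat cells. It was low in all mammary libraries: 8.31 and 15.8 CPM in Ucp1 GFP-positive cells, against 3.25 and 1.90 CPM in Ucp1 GFP-negative cells. For the Myf5 line the values were 3.49 and 0.669 CPM in GFP-positive cells, against 0 and 1.13 CPM in GFP-negative cells. Brown adipocytes had 431 and 1658 CPM in the Ucp1 line and 3355 and 2925 CPM in the Myf5 line. Every brown adipocyte library lay above every mammary one. The Ucp1 GFP-positive libraries were the highest of the mammary ones, with a log2 difference to their GFP-negative partners of 2.23 that did not pass the test (SE 1.24, adjusted p = 0.265). General adipocyte markers (8 genes) summed to 4736 and 5413 CPM in Ucp1 GFP-positive cells, against 5916 and 7203 CPM in Ucp1 GFP-negative cells. In that line 1 of the 8 was higher by the test and 0 lower, beside 0.277% and 14% of all tested genes. Without regard to the test, 3 lay above both GFP-negative libraries (Adipoq, Car3 and Lipe), as did 11.8% of all tested genes. The 2 that lay below both were Fabp4 and Lep, and 48.1% of all tested genes did so. The part of adipocyte RNA in the Cidec difference was not tested.

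Because both Cide genes belong to one family, their levels per kilobase of exon were set against each other. Cidea made up 96.5% and 95.1% of the Cidea and Cidec level in Ucp1 GFP-positive myoepithelial cells, 98.8% and 99.7% in Myf5 GFP-positive cells, 99.6% and 99.7% in Ucp1 GFP-negative cells, and 99.998% and 99.8% in Myf5 GFP-negative cells. In Ucp1 brown adipocytes Cidea made up 75.9% and 72.6%, and in Myf5 brown adipocytes 65.0% and 70.01%. All 8 mammary libraries lay above all 4 brown ones. The share was 28.9 percentage points higher in GFP-negative myoepithelial cells than in brown adipocytes, at 99.8% ± 0.189 against 70.9% ± 4.62 (SD, n = 4 each). The exact two-sided permutation test gave p = 0.0286 (adjusted p = 0.0667 over 28 tests), the smallest p that 4 against 4 libraries allow. No tested share or ratio passed the adjustment in this family of tests. Per kilobase, the Cidea level averaged 137 ± 27.03 CPM in GFP-positive cells, 393 ± 103 CPM in GFP-negative cells and 2533 ± 1324 CPM in brown adipocytes (SD, n = 4 each).

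**Figure D1:**
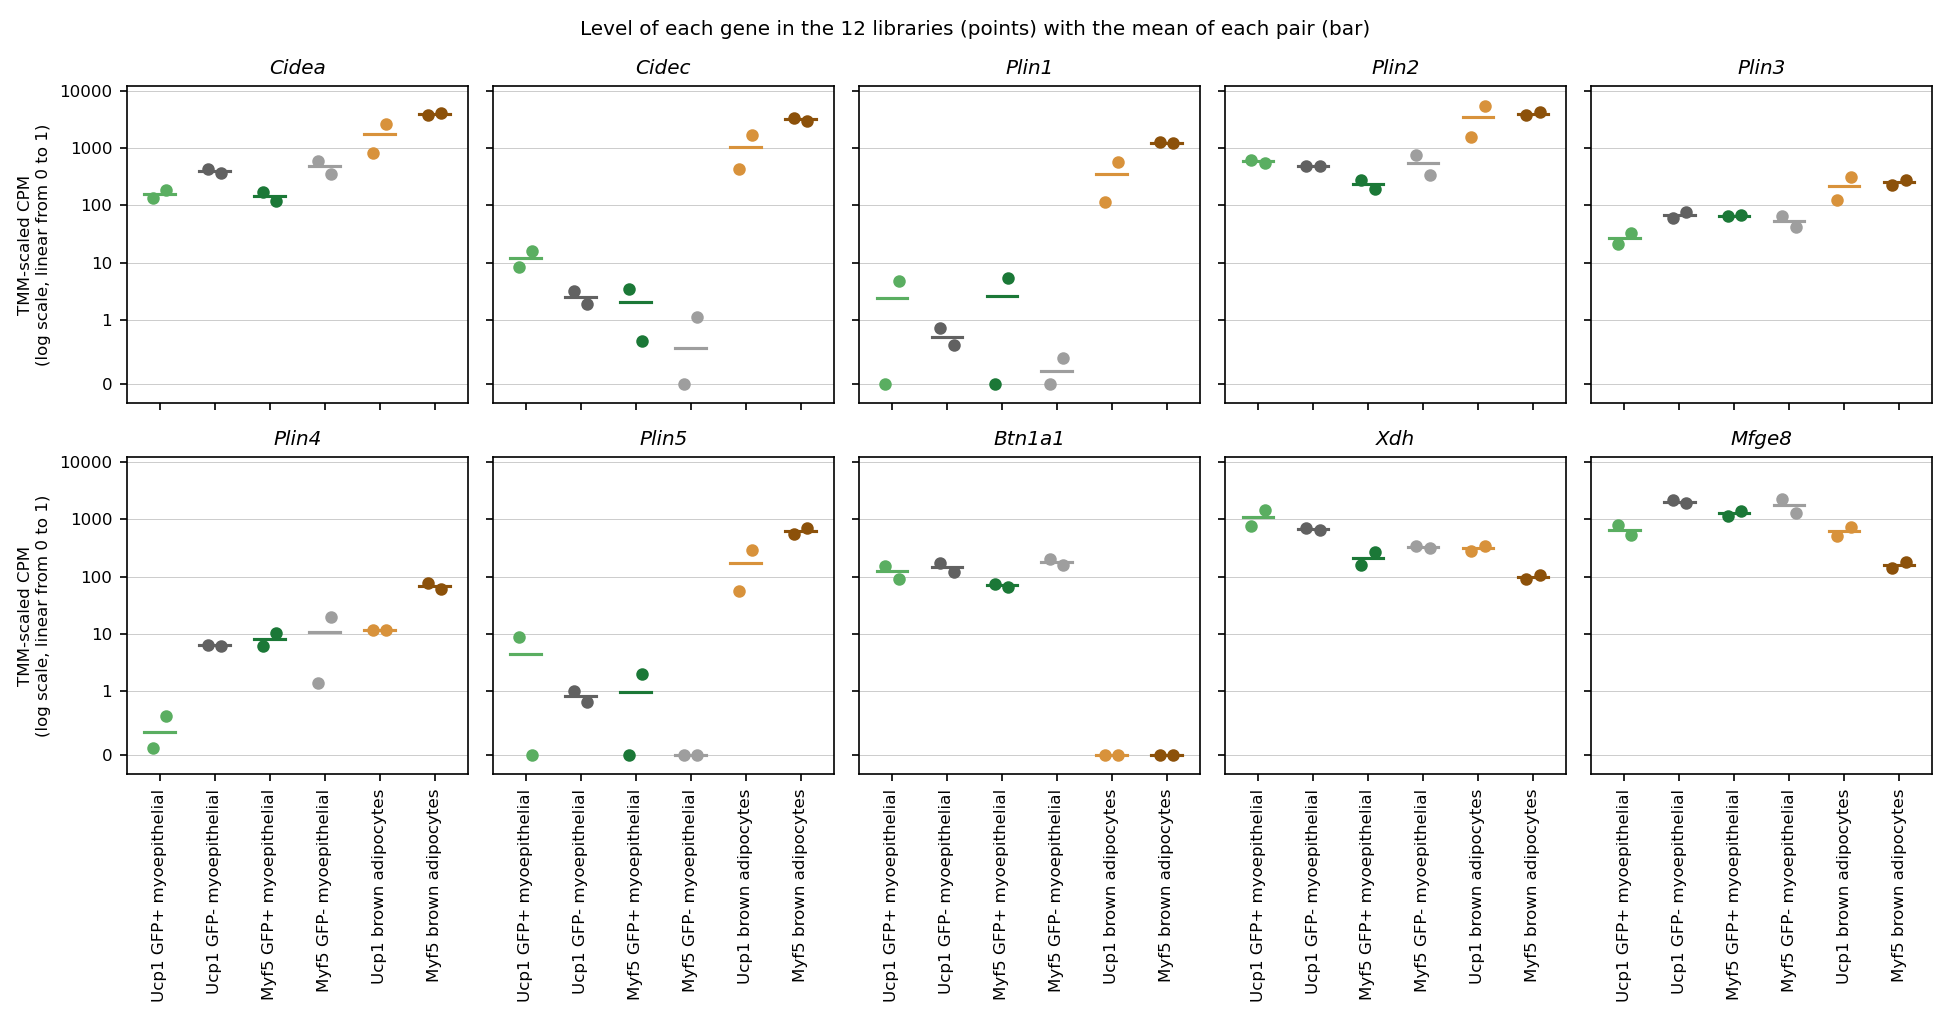
Level of each of the 10 genes in CPM (TMM-scaled, log axis that is linear from 0 to 1) in the 12 libraries, 1 panel per gene, 1 point per library and a bar at the mean of each group, with the groups from left to right Ucp1 GFP-positive, Ucp1 GFP-negative, Myf5 GFP-positive and Myf5 GFP-negative myoepithelial cells, then Ucp1 and Myf5 brown adipocytes. Cidec, Plin1 and Plin5 lie above 50 CPM in brown adipocytes and below 20 CPM in all mammary libraries, while Btn1a1 lies at 0 in the 4 brown adipocyte libraries.

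Plin1, Plin5 and Cidec had their levels in brown adipocytes and little in the gland, whereas Plin2 was abundant in both. The promoter strands of these 4 genes are shown as the sequence from 250 bases before the RefSeq start site up to it (GRCm38.p6, which is mm10, minus strand, 5′ to 3′). They contrast the 3 genes of brown fat with the perilipin of both tissues. The windows lie at chr6:113435761-113436010 for Cidec, chr7:79732777-79733026 for Plin1, chr17:56117549-56117798 for Plin5 and chr4:86670060-86670309 for Plin2. Capitals mark matches to 4 searched motifs, and a sequence with no capitals holds none.

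Cidec: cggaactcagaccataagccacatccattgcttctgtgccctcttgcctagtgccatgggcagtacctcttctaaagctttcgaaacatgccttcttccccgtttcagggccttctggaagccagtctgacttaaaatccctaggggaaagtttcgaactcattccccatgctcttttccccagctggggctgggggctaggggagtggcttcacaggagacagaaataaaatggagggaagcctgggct
Plin1: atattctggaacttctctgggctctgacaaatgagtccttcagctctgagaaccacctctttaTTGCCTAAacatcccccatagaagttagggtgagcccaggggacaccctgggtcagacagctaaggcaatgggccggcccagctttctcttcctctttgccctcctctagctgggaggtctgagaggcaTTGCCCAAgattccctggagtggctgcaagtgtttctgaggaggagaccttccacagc
Plin5: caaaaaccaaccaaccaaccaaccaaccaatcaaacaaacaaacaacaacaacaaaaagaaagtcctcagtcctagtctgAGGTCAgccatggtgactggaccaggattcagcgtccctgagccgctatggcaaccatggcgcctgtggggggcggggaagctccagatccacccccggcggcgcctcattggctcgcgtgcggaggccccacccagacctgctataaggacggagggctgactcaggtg
Plin2: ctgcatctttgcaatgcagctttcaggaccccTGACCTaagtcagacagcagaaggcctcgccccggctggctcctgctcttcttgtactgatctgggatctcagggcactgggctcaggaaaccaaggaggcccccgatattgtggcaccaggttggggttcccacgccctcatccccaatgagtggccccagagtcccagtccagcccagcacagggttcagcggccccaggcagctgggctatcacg

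The motifs were searched on both strands over the 250 bases, in 7 of the 10 genes and in all 32851 windows of RefSeq's table. Btn1a1 and Xdh had no window in that table. Cidea, on chromosome 18, was left out of the search. They were the nuclear receptor half-site AGGTCA, in 14.0% of all windows, the direct repeat of that half-site with a spacer of 1 base, the form that PPAR and RXR pairs bind, in 0.338%, the STAT letters TTCNNNGAA, in 7.02%, and the C/EBP letters TTGCNNAA, in 9.56%. The half-site is 1 spelling of each arm of the direct repeat, so a window can match both. Plin1 had 2 matches to the C/EBP letters, at bases 187 to 180 and 58 to 51 before its start site. Plin5 had 1 half-site on the gene's strand, at bases 170 to 165, and Plin2 had 1 on the opposite strand, at bases 218 to 213. Cidec, Plin3, Plin4 and Mfge8 had no match, and no window of the 7 held the direct repeat or the STAT letters. The start site used for Plin3 lay 2362 bases from the gene's annotated 5′ end. Cidec and Plin5 had 2 windows each, of which 1 was searched. A match is a description of letters, not a bound site. The GC content of the windows was 52.8% in Cidec, 54.0% in Plin1, 58.0% in Plin5 and 61.6% in Plin2, against a median of 52.4% over all windows.

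Plin1 (ENSMUSG00000030546, mm10 chromosome 7, 79720218 to 79732903, minus strand) coats the droplets of fat cells and holds back their lipases until hormones signal. Its level was 0 and 4.88 CPM in Ucp1 GFP-positive cells, against 0.871 and 0.611 CPM in Ucp1 GFP-negative cells. Its Myf5 values were 0 and 5.31 CPM in GFP-positive cells, against 0 and 0.405 CPM in GFP-negative cells. Brown adipocytes had 113 and 579 CPM in the Ucp1 line and 1261 and 1202 CPM in the Myf5 line. In each GFP-positive group 1 library held Plin1 and the other held 0 counts, which allow up to 0.110 CPM in the Ucp1 library and 0.187 CPM in the Myf5 library, for counting error only. Differences between labels in this gene therefore rested on 1 library each.

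Plin5 (ENSMUSG00000011305, mm10 chromosome 17, 56111601 to 56117596, minus strand) tethers droplets to mitochondria in oxidative tissues. Ucp1 GFP-positive cells had 8.82 and 0 CPM, against 1.02 and 0.825 CPM in Ucp1 GFP-negative cells. Myf5 GFP-positive cells had 0 and 1.97 CPM, against 0 and 0 CPM in Myf5 GFP-negative cells. Brown adipocytes had 55.2 and 286 CPM in the Ucp1 line and 549 and 709 CPM in the Myf5 line. All 4 brown adipocyte libraries lay above all 8 mammary libraries, and among the mammary groups neighbours overlapped except for the last, where Myf5 GFP-negative cells held 0 counts.

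Plin2 (ENSMUSG00000028494, mm10 chromosome 4, 86648386 to 86670060, minus strand) is the perilipin of most cells and of milk fat droplets. Its level was 621 and 554 CPM in Ucp1 GFP-positive cells, against 487 and 487 CPM in Ucp1 GFP-negative cells. Myf5 GFP-positive cells had 281 and 194 CPM, against 742 and 341 CPM in Myf5 GFP-negative cells. Ucp1 brown adipocytes had 1564 and 5361 CPM, and Myf5 brown adipocytes had 3690.0 and 4190.4 CPM. The labelled cells thus lay above the unlabelled ones in the Ucp1 line and below them in the Myf5 line, with no overlap in either. Neither difference passed the test, with log2 values of 0.27 in the Ucp1 line (SE 0.588, adjusted p = 0.839) and -1.19 in the Myf5 line (SE 0.596, adjusted p = 0.614). The difference between the lines' label effects was 1.46 on the log2 scale (SE 0.835, adjusted p = 0.348).

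Plin3 (ENSMUSG00000024197, mm10 chromosome 17, 56277476 to 56292873, minus strand) is a cytosolic perilipin that moves to new droplets. It measured 21.4 and 32.6 CPM in Ucp1 GFP-positive cells, against 61.004 and 75.9 CPM in Ucp1 GFP-negative cells. Myf5 GFP-positive cells had 65.6 and 67.1 CPM, against 65.4 and 42.6 CPM in Myf5 GFP-negative cells. Ucp1 brown adipocytes had 124 and 316 CPM, and Myf5 brown adipocytes had 230.3 and 272 CPM. The Ucp1 GFP-positive libraries were the lowest of the 12, and the label difference in that line was -1.34 on the log2 scale (SE 0.513, adjusted p = 0.110), which did not pass.

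Plin4 (ENSMUSG00000002831, mm10 chromosome 17, 56100591 to 56109803, minus strand) coats small droplets in white fat and muscle. It shares 17 exonic bases with Hdgfl2 on the opposite strand, and whether counting used strand is not stated. Ucp1 GFP-positive cells had 0.110 and 0.607 CPM, against 6.52 and 6.11 CPM in Ucp1 GFP-negative cells. Myf5 GFP-positive cells had 6.16 and 10.3 CPM, against 1.42 and 20.03 CPM in Myf5 GFP-negative cells. Ucp1 brown adipocytes had 11.7 and 11.6 CPM, and Myf5 brown adipocytes had 78.8 and 60.8 CPM. The difference in the Ucp1 line was -4.10 on the log2 scale and did not pass (SE 1.27, adjusted p = 0.0595). DESeq2 called it lower.

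Within the perilipin family, levels per kilobase were taken as shares of the 5 genes' sum. Plin2 held 94.7% and 94.2% of it in Ucp1 GFP-positive cells, 81.3% and 71.9% in Myf5 GFP-positive cells, 88.6% and 86.5% in Ucp1 GFP-negative cells and 92.3% and 86.7% in Myf5 GFP-negative cells. In brown adipocytes it held 83.9% and 81.5% in the Ucp1 line and 63.3% and 63.7% in the Myf5 line. Plin2 was thus the main perilipin message in all 12 libraries. Its share averaged 88.5% ± 2.69 in GFP-negative cells, against 73.1% ± 11.1 in brown adipocytes (SD, n = 4 each), 15.4 percentage points apart (exact two-sided permutation test, p = 0.0286, adjusted p = 0.0667). Plin3 followed in the gland, with a mean share of 12.2% in GFP-positive and 10.1% in GFP-negative cells, against 4.53% in brown adipocytes. In brown adipocytes Plin5 held 4.99% and 7.32% in the Ucp1 line and 15.8% and 18.1% in the Myf5 line, and Plin1 held 4.59% and 6.65% in the Ucp1 line and 16.3% and 13.8% in the Myf5 line. In the first Ucp1 brown adipocyte library Plin3, at 6.15%, was above both. Plin4 had a mean share of 0.873% in GFP-positive cells, 1.15% in GFP-negative cells and 0.468% in brown adipocytes.

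**Figure D2:**
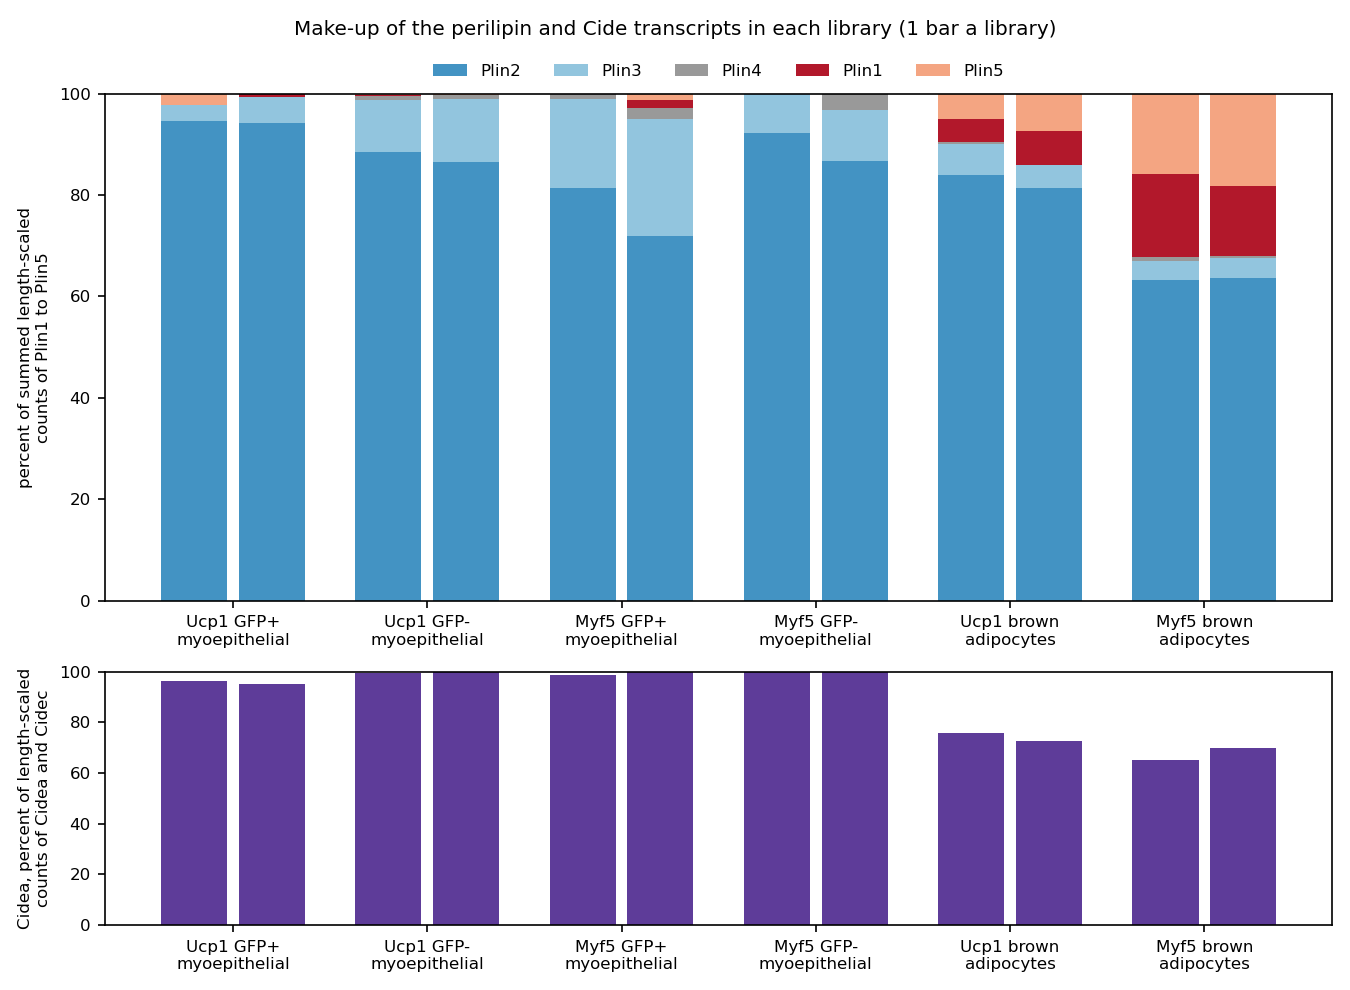
Shares, in percent of the family's summed level per kilobase of exon, of the 5 perilipins (stacked, upper panel) and of Cidea in Cidea and Cidec (lower panel), 1 bar per library, with the mammary groups left of the brown adipocytes. Plin2 fills the largest part of every perilipin bar, 63.3% to 94.7%, and the Cidea bars reach 95.1% or more in mammary libraries, against 65.0% to 75.9% in brown adipocytes.

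Btn1a1 (ENSMUSG00000000706, mm10 chromosome 13, 23456992 to 23465901, minus strand) encodes butyrophilin, a membrane protein that is made in quantity by the lactating gland. Its level was 155 and 91.7 CPM in Ucp1 GFP-positive cells, against 175 and 122 CPM in Ucp1 GFP-negative cells. In the Myf5 line it was 75.4 and 64.5 CPM in GFP-positive cells, against 200.3 and 161 CPM in GFP-negative cells. All 4 brown adipocyte libraries held 0 counts, which allow up to 0.0742 CPM over the 4 for counting error only. Ucp1 GFP-negative cells overlapped with Myf5 GFP-negative and with Ucp1 GFP-positive cells, Ucp1 GFP-positive cells lay below Myf5 GFP-negative cells, and Myf5 GFP-positive cells lay below the other mammary groups. Neither label difference passed the test, at -0.27 in the Ucp1 line (SE 0.472, adjusted p = 0.789) and -1.37 in the Myf5 line (SE 0.481, adjusted p = 0.426) on the log2 scale.

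Mfge8 (ENSMUSG00000030605, mm10 chromosome 7, 79133768 to 79149060, minus strand) encodes lactadherin, which binds phosphatidylserine and coats milk fat globules and dying cells. It was the most abundant of the 3 globule messages per kilobase in GFP-negative cells, at 405 ± 93.1 CPM, against 54.5 ± 21.5 CPM for Xdh and 39.9 ± 8.00 CPM for Btn1a1 (SD, n = 4 each). Its level was 792 and 527 CPM in Ucp1 GFP-positive cells, against 2139 and 1880.1 CPM in Ucp1 GFP-negative cells. Myf5 GFP-positive cells had 1129.5 and 1397 CPM, against 2292 and 1298 CPM in Myf5 GFP-negative cells. Brown adipocytes had 515 and 744 CPM in the Ucp1 line and 139 and 183 CPM in the Myf5 line.

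In the Ucp1 line Mfge8 was lower in GFP-positive cells, at 659.5 ± 187 CPM against 2009.8 ± 183 CPM in unlabelled cells (SD, n = 2 each), a log2 difference of -1.61 (SE 0.440, adjusted p = 0.0405). Relative to the median of all genes, which was -0.69 in this comparison, the difference was -0.92. The call was lost with DESeq2's size factors (adjusted p = 0.0676), without the filter on low counts (adjusted p = 0.0568), without milk and mitochondrial genes (adjusted p = 0.0526) and when any 1 of the 4 compared libraries was left out (adjusted p = 0.0522 to 0.163), as well as without the first Myf5 GFP-positive library or either Myf5 brown adipocyte library. In the Myf5 line the groups overlapped, and the log2 difference was -0.51 (SE 0.430, adjusted p = 0.924).

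Xdh (ENSMUSG00000024066, mm10 chromosome 17, 73883895 to 73950196, minus strand) encodes xanthine oxidoreductase, which makes urate in purine breakdown and has a structural part in globule release. Ucp1 GFP-positive cells had 763 and 1462 CPM, against 699 and 641 CPM in Ucp1 GFP-negative cells. Myf5 GFP-positive cells had 158 and 266 CPM, against 345 and 317 CPM in Myf5 GFP-negative cells. Ucp1 brown adipocytes had 279.7 and 343 CPM, and Myf5 brown adipocytes had 90.8 and 107 CPM. Labelled cells lay above unlabelled ones in the Ucp1 line and below them in the Myf5 line, with no overlap in either. The log2 differences were 0.73 in the Ucp1 line (SE 0.431, adjusted p = 0.295) and -0.64 in the Myf5 line (SE 0.431, adjusted p = 0.793). The difference between them was 1.38 (SE 0.610, adjusted p = 0.206), and none of these passed. In the order of groups, Myf5 GFP-negative cells and Ucp1 brown adipocytes overlapped, and no other neighbours did.

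Xdh is also made by capillary endothelial cells in mice, and 5 endothelial markers (Pecam1, Cdh5, Kdr, Tie1 and Cldn5) were detected in all 12 libraries. Their sum was 4960.0 and 7414 CPM in Ucp1 GFP-positive cells, against 4465 and 4405 CPM in Ucp1 GFP-negative cells. It was 562 and 937 CPM in Myf5 GFP-positive cells, against 2573 and 3155 CPM in Myf5 GFP-negative cells. Ucp1 brown adipocytes had 2515 and 1260.0 CPM, and Myf5 brown adipocytes had 11.6 and 318 CPM. By group means the sum ran in the same order of groups as Xdh. Per endothelial count, Xdh counts were 0.154 and 0.197 in Ucp1 GFP-positive cells, 0.281 and 0.284 in Myf5 GFP-positive cells, 0.156 and 0.146 in Ucp1 GFP-negative cells and 0.134 and 0.101 in Myf5 GFP-negative cells. This ratio spanned 0.101 to 0.284 in the 8 mammary libraries, in which Xdh itself spanned 158 to 1462 CPM. In brown adipocytes the ratio was 0.111 and 0.272 in the Ucp1 line and 7.83 and 0.338 in the Myf5 line. None of the 5 endothelial markers passed the test in either line's label comparison or between the lines in brown adipocytes. Of all tested genes, 14.3% passed in the Ucp1 line, 0% in the Myf5 line and 1.32% in brown adipocytes. Without regard to the test, all 5 markers lay below both GFP-negative libraries in the Myf5 line (20.2% of all genes did). In the Ucp1 line 2 lay above both (11.8%). All 5 lay higher in Ucp1 than in Myf5 brown adipocytes (31.3%). The part of endothelial RNA in the Xdh differences was not tested.

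**Figure D3:**
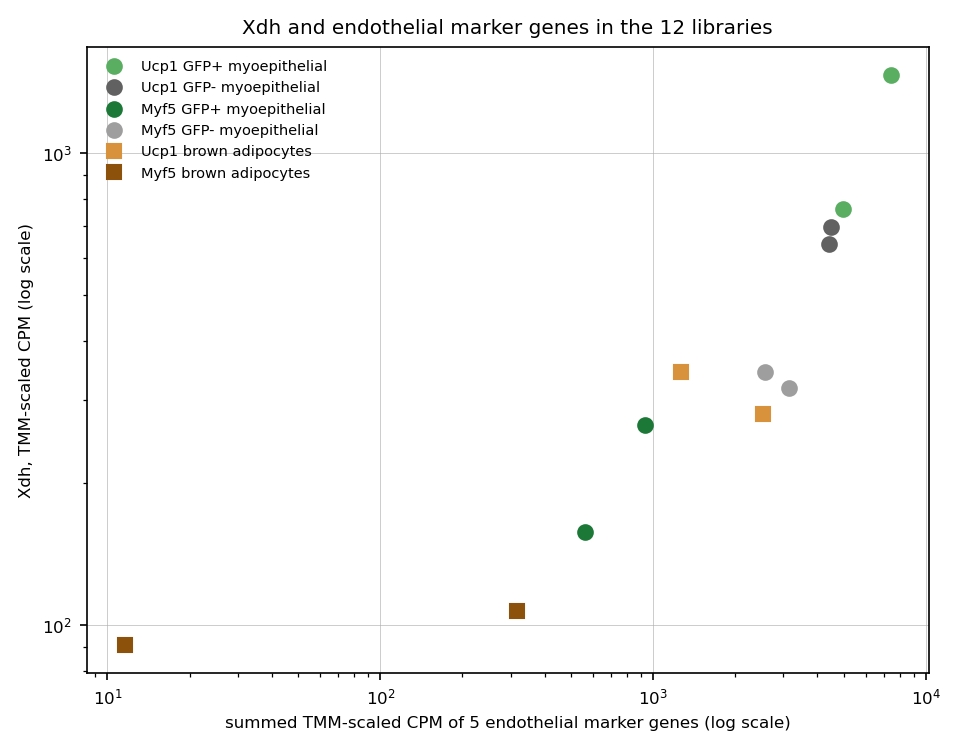
Xdh level against the summed level of 5 endothelial markers, both in CPM (TMM-scaled) on log axes, 1 point per library, coloured by group. The Ucp1 GFP-positive libraries are at the top right, at 763 and 1462 CPM of Xdh, and the Myf5 brown adipocyte libraries are lowest, at 90.8 and 107 CPM.

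Against brown adipocytes, 9 of the 10 genes passed the test in GFP-negative myoepithelial cells (3 higher, 6 lower), beside 26.6% of all tested genes (14.6% higher, 12% lower). In GFP-positive myoepithelial cells all 10 passed (3 higher, 7 lower), beside 36.3% of all tested genes (12.4% higher and 23.9% lower). The 3 higher genes were Btn1a1, Xdh and Mfge8 in both. The median log2 difference of the 10 genes was -2.26 in GFP-negative cells, beside 0.35 over all tested genes, and -3.67 in GFP-positive cells, beside -0.27. Both comparisons used the same brown adipocyte libraries. They also differ in tissue, sort and reproductive state, which cannot be told apart from cell type.

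Cidec was 1334-fold lower by the means in GFP-negative cells, at 1.57 ± 1.36 CPM against 2092 ± 1321 CPM in brown adipocytes (SD, n = 4 each), with a fitted log2 difference of -10.54 (SE 1.25, adjusted p = 0.000634). Plin1 was 1672-fold lower (adjusted p = 0.00540) and Plin5 866-fold lower (adjusted p = 0.00697). The Plin5 call was lost when either Ucp1 GFP-negative library was left out (adjusted p = 0.0503 and 0.0504). In GFP-positive cells the corresponding folds were 296 for Cidec (adjusted p = 0.000727), 310 for Plin1 (adjusted p = 0.00799) and 148 for Plin5 (adjusted p = 0.0129). Plin1 and Plin5 each held 0 counts in 2 of the 4 GFP-positive libraries. Their fitted log2 differences of -7.98 and -7.27 moved to -12.42 and -11.01 without the second Myf5 GFP-positive library, Plin1 to -12.30 without the second Ucp1 GFP-positive library, and Plin5 to -12.05 without the first. In GFP-negative cells the fitted log2 difference was -13.86 for Cidec and -13.28 for Plin1 without the second Myf5 GFP-negative library. All of these stayed past the threshold.

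The folds were smaller for Cidea, Plin2, Plin3 and Plin4. Cidea was 6.44-fold lower in GFP-negative cells than in brown adipocytes, with a log2 difference of -2.58 (SE 0.414, adjusted p = 0.00255), and 18.5-fold lower in GFP-positive cells, with a log2 difference of -4.10 (SE 0.443, adjusted p = 0.000276). Plin2 was 7.20-fold lower in GFP-negative cells, at 514 ± 167 CPM against 3701 ± 1588 CPM in brown adipocytes (SD, n = 4 each, adjusted p = 0.00221), and 8.97-fold lower in GFP-positive cells (adjusted p = 0.000766). Plin3 was 3.85-fold lower in GFP-negative cells (adjusted p = 0.00536) and 5.05-fold lower in GFP-positive cells (adjusted p = 0.00124). Plin4 had a log2 difference of -1.79 in GFP-negative cells that did not pass (SE 0.808, adjusted p = 0.133), and was 9.47-fold lower in GFP-positive cells (adjusted p = 0.00718). Without the Ucp1 GFP-positive libraries, which stand apart in genes detected, all 10 genes passed in GFP-negative cells, Plin4 at an adjusted p of 0.0487.

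The globule genes ran the other way. Btn1a1 was at least 2216-fold higher in GFP-negative cells (adjusted p = 5.67e-05) and at least 1302-fold higher in GFP-positive cells (adjusted p = 6.88e-05), taking 3 counts over the 4 brown adipocyte libraries as the floor. Mfge8 was 4.81-fold higher in GFP-negative cells, at 1902 ± 437 CPM against 395 ± 287 CPM in brown adipocytes (SD, n = 4 each, adjusted p = 0.000792), and 2.43-fold higher in GFP-positive cells (adjusted p = 0.00504). Xdh was 2.44-fold higher in GFP-negative cells, at 500.4 ± 197 CPM against 205 ± 126 CPM in brown adipocytes (SD, n = 4 each, adjusted p = 0.00991), and 3.23-fold higher in GFP-positive cells (adjusted p = 0.00583). For Xdh the libraries overlapped in both comparisons, since Ucp1 brown adipocytes lay within the mammary range. Milk protein messages were higher by the test in 8 of 8 genes in both comparisons. Endothelial markers were higher in 5 of 5 genes in GFP-negative cells and in 2 of 5 in GFP-positive cells. Of all tested genes, 14.6% and 12.4% were higher. The part of these messages in the differences of the 3 globule genes was not tested.

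**Figure D4:**
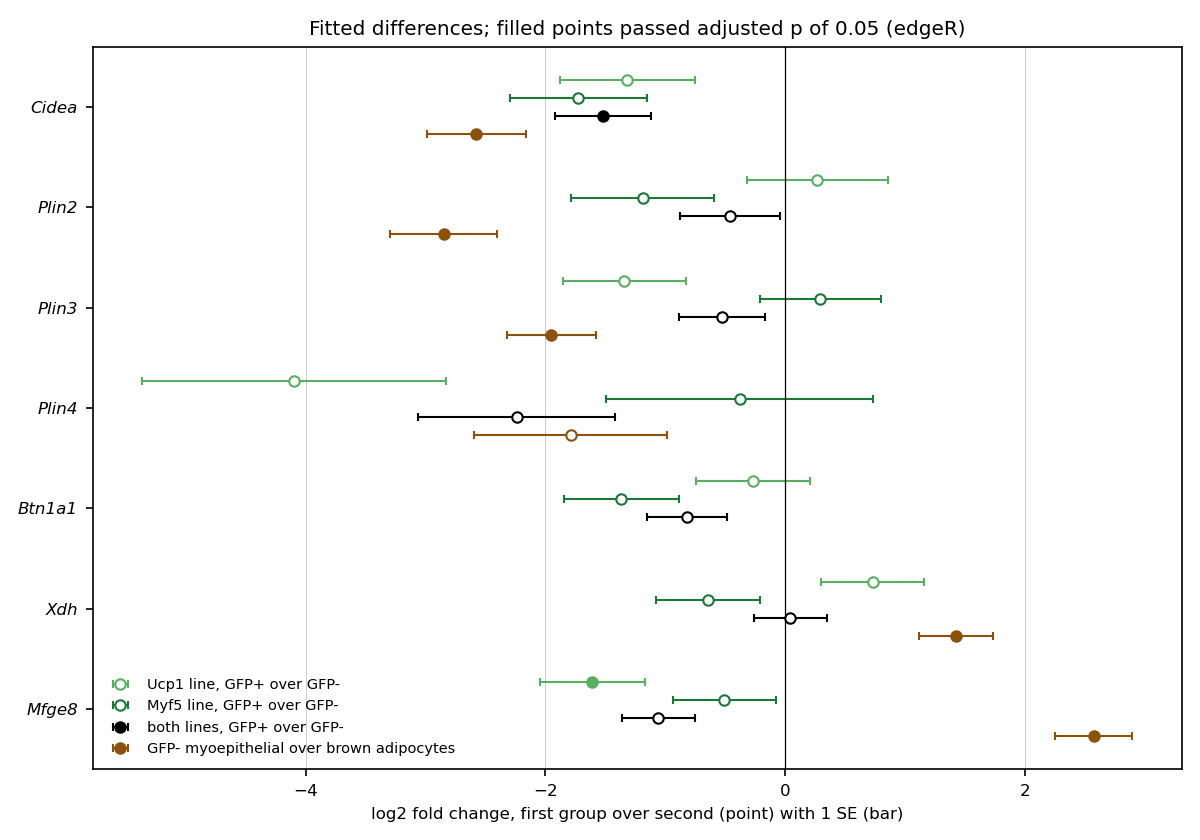
Log2 difference and its standard error (edgeR) for 7 genes in 4 comparisons, GFP-positive over GFP-negative cells in the Ucp1 line, in the Myf5 line and over both lines, and GFP-negative myoepithelial cells over brown adipocytes (not drawn for Btn1a1, at 0 counts in brown adipocytes), with filled points where the adjusted p was under 0.05. Against brown adipocytes Cidea, Plin2 and Plin3 lie left of 0 and Xdh and Mfge8 right of it, and the filled label differences are Mfge8 in the Ucp1 line, at -1.61, and Cidea over both lines, at -1.52.

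The label comparisons asked whether cells descended from Ucp1-iCre or Myf5-Cre cells differ from their unlabelled neighbours. In the Ucp1 line 1 of the 10 genes passed, Mfge8, lower, beside 14.3% of all tested genes (0.277% higher, 14% lower). DESeq2 called 2, Mfge8 and Plin4, beside 4152 of the 16953 tested genes. In the Myf5 line edgeR's test called 0 of 10 genes and 0% of all tested genes, with 2 of the 10 at an unadjusted p under 0.05 beside 9.28% of all genes. DESeq2 called 0 of the 10 in that line, beside 724 of the 16953 genes. Over both lines 1 of 10 passed, Cidea, lower, beside 11.5% (11.4% lower), and DESeq2 called 4, beside 3092 of the 16953 genes. The difference of the label effect between the lines passed for 0 of 10 by edgeR, beside 11% of all genes, with 3 at an unadjusted p under 0.05 beside 24%. By DESeq2 it passed for 0 of 10, beside 3096 of the 16953 genes.

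Without regard to the test, the Ucp1 GFP-positive libraries lay above both GFP-negative ones for 3 genes (11.8% of all genes did) and below both for 4 (48.1% did). In the Myf5 line 1 gene lay above (14.5% of all genes) and 4 below (20.2%). The median log2 difference of the 10 genes was 0.00 in the Ucp1 line beside -0.69 over all genes, and -0.44 in the Myf5 line beside -0.06. Milk protein messages summed to 24747 and 25727 CPM in Ucp1 GFP-positive cells, against 112429 and 125526 CPM in Ucp1 GFP-negative cells, and to 43113 and 18327 CPM in Myf5 GFP-positive cells, against 125557 and 64995 CPM in Myf5 GFP-negative cells. Of the 8 milk protein genes, 4 were lower by the test in the Ucp1 line and 6 over both lines. Of the 10 basal markers, 2 were lower in the Ucp1 line, where 14% of all genes were, and 6 over both lines, where 11.4% were. Luminal markers (9 genes) summed to 189 and 276 CPM in Ucp1 GFP-positive and 62.7 and 101 CPM in Myf5 GFP-positive cells, against 674 and 643 CPM in Ucp1 GFP-negative and 529.7 and 653 CPM in Myf5 GFP-negative cells, with 1 of 9 lower by the test over both lines and 0 in each line. Pericyte markers (5 genes) summed to 2921 and 2479.5 CPM in Myf5 GFP-positive cells, against 644 and 399 CPM in Myf5 GFP-negative cells, with 0 of 5 called. Fibroblast markers (6 genes) summed to 676 and 190.4 CPM in Ucp1 GFP-positive cells, against 2914 and 2325 CPM in Ucp1 GFP-negative cells, with 3 of 6 lower by the test. In the Myf5 line they summed to 17735 and 9546 CPM in GFP-positive cells, against 822 and 478 CPM in GFP-negative cells, with 0 of 6 called. The part of these other messages in the label differences of the 10 genes was not tested.

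To set the genes beside those milk messages, each gene's counts were divided by the summed counts of the 8 milk protein genes in the same library. Per 1000 milk protein counts, Plin2 had 25.1 and 21.5 counts in Ucp1 GFP-positive cells and 6.52 and 10.6 in Myf5 GFP-positive cells, against 4.33 and 3.88 in Ucp1 GFP-negative cells and 5.91 and 5.24 in Myf5 GFP-negative cells. All 4 GFP-positive libraries lay above all 4 GFP-negative ones, as was so for 19% of all tested genes (1.88% lay below). The log2 difference was 1.54 (exact two-sided permutation test, p = 0.0286, adjusted p = 0.0667). Cidec, Plin3 and Mfge8 had the same p and adjusted p, with log2 differences of 4.70, 1.44 and 0.91 in favour of GFP-positive cells. Over all tested genes the median of this difference was 0.99, with quartiles at -0.79 and 1.91. The values of Plin2, Plin3 and Mfge8 lay between those quartiles, so that nothing particular to these genes is read from them. The Cidec value was 3.0 without the first Myf5 GFP-negative library, which held 0 counts of it.

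Mfge8 had 32.0 and 20.5 counts per 1000 in Ucp1 GFP-positive cells and 26.2 and 76.2 in Myf5 GFP-positive cells, against 19.0 and 15.0 in Ucp1 GFP-negative cells and 18.3 and 19.98 in Myf5 GFP-negative cells. Cidea had 5.52 and 7.14 in Ucp1 GFP-positive cells and 3.97 and 6.46 in Myf5 GFP-positive cells, against 3.88 and 2.88 in Ucp1 GFP-negative cells and 4.79 and 5.46 in Myf5 GFP-negative cells. For Cidea the groups overlapped (log2 difference 0.45, exact two-sided permutation test, p = 0.143, adjusted p = 0.250). Btn1a1 had 6.26 and 3.57 in Ucp1 GFP-positive cells and 1.75 and 3.52 in Myf5 GFP-positive cells, against 1.56 and 0.968 in Ucp1 GFP-negative cells and 1.60 and 2.47 in Myf5 GFP-negative cells, a log2 difference of 1.13 (exact two-sided permutation test, p = 0.0571, adjusted p = 0.114). Xdh had 30.8 and 56.8 in Ucp1 GFP-positive cells and 3.66 and 14.5 in Myf5 GFP-positive cells, against 6.21 and 5.11 in Ucp1 GFP-negative cells and 2.75 and 4.88 in Myf5 GFP-negative cells, with overlap between the groups.

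**Figure D5:**
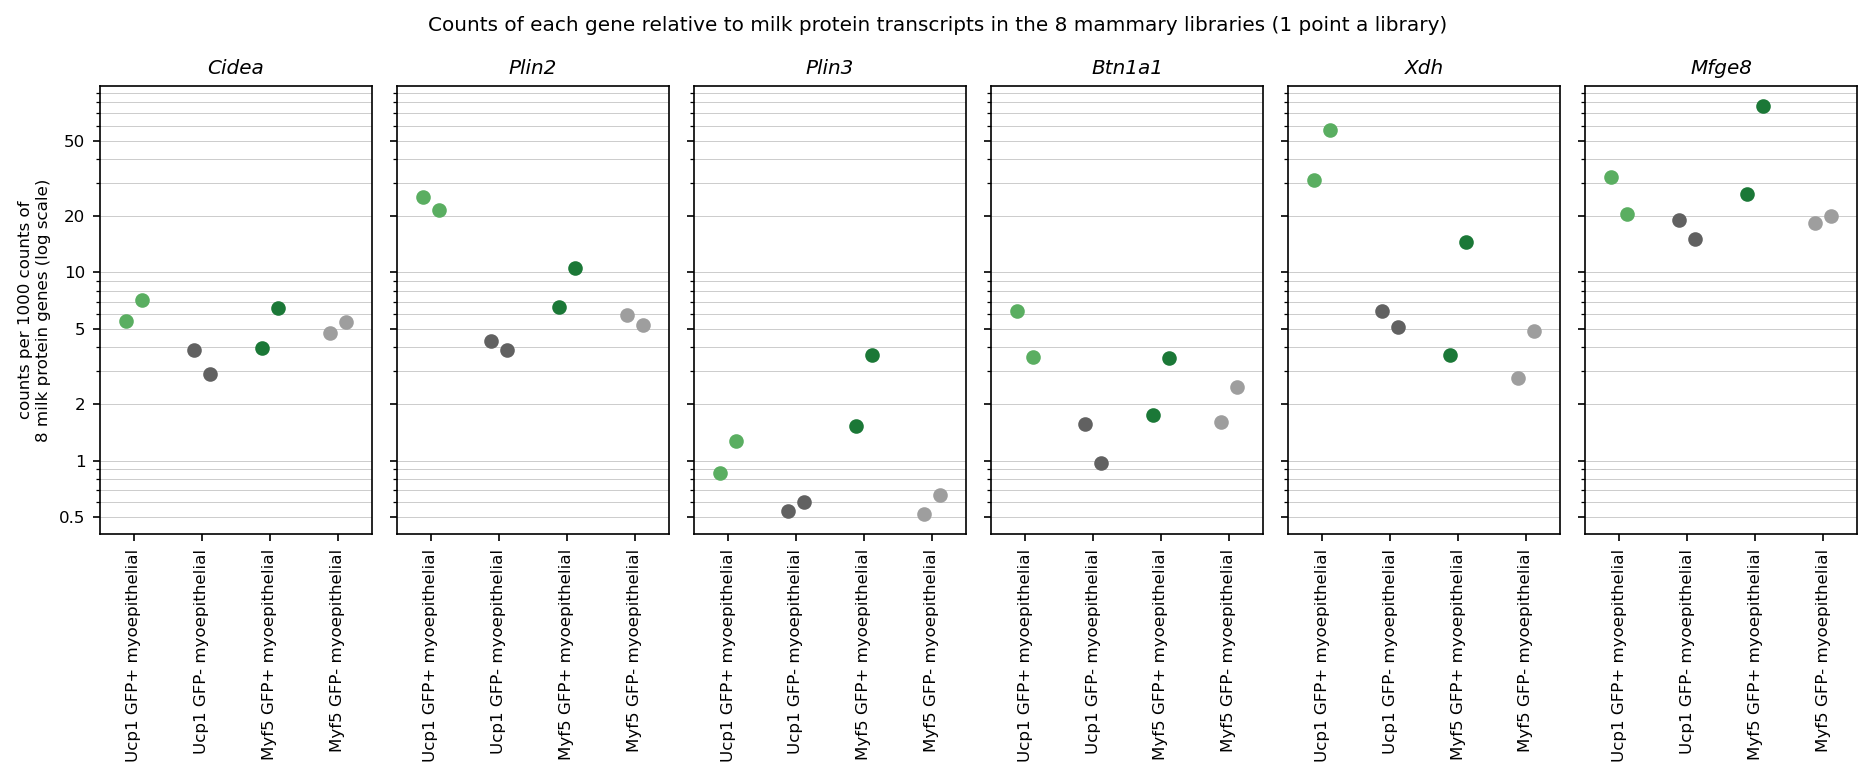
Counts of 6 of the genes per 1000 counts of 8 milk protein genes (log axis), 1 point per mammary library, GFP-positive groups left of the GFP-negative group of the same line. Plin2 lies at 6.52 to 25.1 in the 4 GFP-positive libraries and at 3.88 to 5.91 in the 4 GFP-negative ones.

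Between the lines, edgeR's test called 0 of the 10 genes in brown adipocytes, beside 1.32% of all tested genes, with 2 of the 10 at an unadjusted p under 0.05 beside 13%. DESeq2 called 2 there, beside 1486 of the 16953 tested genes. Mfge8 averaged 629.6 ± 162 CPM in Ucp1 brown adipocytes, against 161 ± 30.6 CPM in Myf5 brown adipocytes (SD, n = 2 each), a log2 difference of 1.97 (SE 0.445, adjusted p = 0.0715). Xdh averaged 311 ± 44.8 CPM in Ucp1 and 99.01 ± 11.7 CPM in Myf5 brown adipocytes, a log2 difference of 1.65 (SE 0.441, adjusted p = 0.112). Cidec, Plin1 and Plin5 pointed the other way, with log2 differences of -1.59, -1.83 and -1.88 that did not pass. Of the 2 Ucp1 brown adipocyte libraries the first was the lower in all 3 of these genes, at 431, 113 and 55.2 CPM, against 1658, 579 and 286 CPM in the second. Brown adipocyte markers summed to 2075 and 5934 CPM in Ucp1 brown adipocytes, against 16933 and 21528 CPM in Myf5 ones. Endothelial markers summed to 2515 and 1260.0 CPM against 11.6 and 318 CPM. Erythroid markers (5 genes) summed to 1426 and 461 CPM against 39.5 and 138 CPM. The part of these marker messages in the differences between the lines was not tested. In GFP-negative myoepithelial cells edgeR's test called 0 of 10 genes and 0% of all genes between the lines, with 1 of the 10 at an unadjusted p under 0.05 beside 3.56%. DESeq2 called 0 of the 10 in those cells, beside 43 of the 16953 genes.

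Other droplet proteins and lipases (18 genes) were described beside these members. In GFP-negative myoepithelial cells 0 were higher and 8 lower than in brown adipocytes (median log2 difference -1.07), and in GFP-positive cells 0 higher and 10 lower (median -1.98). Of all tested genes, 14.6% were higher and 12% lower in GFP-negative cells, and 12.4% and 23.9% in GFP-positive cells. The lipase Pnpla2, which takes the first fatty acid from triglyceride, averaged 291 ± 48.1 CPM in GFP-negative cells, against 4865 ± 2795 CPM in brown adipocytes (SD, n = 4 each, adjusted p = 0.000796). Its inhibitor G0s2, the hormone-sensitive lipase Lipe and seipin (Bscl2), which shapes new droplets, were also lower, with log2 differences of -3.58, -3.08 and -3.11. In the Ucp1 line G0s2 was lower in GFP-positive cells, at 14.7 and 13.5 CPM against 54.9 and 49.2 CPM in GFP-negative cells (log2 difference -1.88, SE 0.494, adjusted p = 0.0342). The Myf5 line had 42.4 and 25.7 CPM in GFP-positive cells, against 10.96 and 12.46 CPM in GFP-negative cells, and the difference between the lines was -3.42 (SE 0.695, adjusted p = 0.0121).

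Lipe differed between the lines in the other direction, with 124 and 183 CPM in Ucp1 GFP-positive cells, against 63.4 and 72.5 CPM in Ucp1 GFP-negative cells, and 18.6 and 20.2 CPM in Myf5 GFP-positive cells, against 70.8 and 63.1 CPM in Myf5 GFP-negative cells. The difference of its label effect was 2.96 on the log2 scale (SE 0.623, adjusted p = 0.0142). Mgll, which cleaves monoglycerides, was lower in GFP-positive cells over both lines, at 420 ± 137 CPM against 1046 ± 287 CPM in unlabelled cells (SD, n = 4 each), with a log2 difference of -1.35 (SE 0.259, adjusted p = 0.0117). It was the 1 gene of the 18 that passed there, beside 11.5% of all tested genes. The G0s2 call in the Ucp1 line was lost when any 1 of the 4 compared libraries was left out (adjusted p = 0.0600 to 0.150), and also without either Myf5 GFP-negative or either Myf5 brown adipocyte library. The differences between lines were lost without the first Myf5 GFP-negative or first Ucp1 GFP-negative library for both genes, without the second Myf5 GFP-negative library for G0s2 and without the second Ucp1 GFP-negative library for Lipe, and the Mgll call without the second Ucp1 GFP-negative library (adjusted p = 0.0519 to 0.0885) or with the line as covariate (adjusted p = 0.422).

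Of 10 further globule membrane genes, 9 were tested. Of these, 8 were higher in GFP-negative cells than in brown adipocytes (14.6% of all genes) and 7 in GFP-positive cells (12.4%), with none lower. The medians were 6.95 and 5.70 on the log2 scale, and stayed so with genes at 0 in brown adipocytes set at their bound. Muc15, a glycoprotein of the globule membrane, and Slc34a2, a phosphate carrier of the apical membrane, held 0 counts in all brown adipocyte libraries and were at least 1009-fold and 1393-fold higher in GFP-negative cells. Fabp3, the fatty acid carrier of heart and lactating gland, was lower in GFP-positive than GFP-negative cells over both lines, at 172 ± 21.4 CPM against 606 ± 134 CPM (SD, n = 4 each, log2 difference -1.82, SE 0.280, adjusted p = 0.00531), and in the Ucp1 line (adjusted p = 0.0182). Between the lines in brown adipocytes, Abcg2, the riboflavin and drug exporter of milk, had 207 and 139.8 CPM in Ucp1 cells, against 0.976 and 5.77 CPM in Myf5 cells (adjusted p = 0.0260). Fabp3 had 30.3 and 24.7 CPM in Ucp1 brown adipocytes, against 242 and 257 CPM in Myf5 brown adipocytes (adjusted p = 0.0224). The Fabp3 call was lost over both lines with the line as covariate (adjusted p = 0.339) and in the Ucp1 line without either GFP-negative or the first GFP-positive library (adjusted p = 0.0526 to 0.117). Both brown adipocyte calls were lost without the first Ucp1 or first Myf5 brown adipocyte library or either Ucp1 GFP-negative library. Fabp3 was lost without the second Ucp1 brown adipocyte library too, and Abcg2 without any 1 of the Myf5 myoepithelial libraries (adjusted p = 0.0536 to 0.137 over these for both genes).

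Xdh needs the molybdenum cofactor, and of its 5 synthesis genes 1 passed, Mocs2, lower in GFP-positive cells than in brown adipocytes (log2 difference -1.62, adjusted p = 0.0115). None passed in GFP-negative cells against brown adipocytes or in the label comparisons. Of all tested genes, 14.6% were higher and 12% lower in GFP-negative cells than in brown adipocytes, and 12.4% and 23.9% in GFP-positive cells. Of 12 regulators of lactation and fat, 1 was higher and 4 were lower in GFP-negative cells than in brown adipocytes, and 1 higher and 5 lower in GFP-positive cells. The higher one was Elf5, the factor of alveolar fate, with 3.62 ± 2.07 CPM in GFP-positive cells and 20.3 ± 6.54 CPM in GFP-negative cells, against 0.0229 ± 0.0458 CPM in brown adipocytes (SD, n = 4 each). Cebpa, a factor of fat cell differentiation, averaged 9.40 ± 5.11 CPM in GFP-negative cells, against 83.2 ± 77.5 CPM in brown adipocytes (SD, n = 4 each, adjusted p = 0.00787), a call lost without the first Ucp1 GFP-negative library (adjusted p = 0.0555). In the Ucp1 line Stat5b, which carries the prolactin and growth hormone signal, was lower in GFP-positive cells, at 8.16 and 20.6 CPM against 77.0 and 81.3 CPM in GFP-negative cells (log2 difference -2.46, adjusted p = 0.0346). This call was lost without any 1 library other than the Myf5 GFP-positive ones and the second Ucp1 GFP-positive one (adjusted p = 0.05002 to 0.141).

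The genes with the most similar pattern over the 12 libraries were taken by Pearson's r of log2(CPM + 1) among the 9012 protein-coding genes that averaged 10 CPM or more. These values are a description of libraries in which brown adipocytes and gland stand far apart. Btn1a1 was most like Muc15 (r = 0.996) and the casein genes Csn1s2b and Csn1s1 (both r = 0.995). For Cidec they were Cdo1 (r = 0.992), Cox8b (r = 0.990) and the fat cell hormone gene Adipoq (r = 0.987). Plin1 had Ppp1r1a, Cox7a1 and Dvl2 (r = 0.987 to 0.991), and Plin5 had Ltc4s, Uqcrfs1 and Adhfe1 (r = 0.984 to 0.985). The nearest gene was Mrpl17 for Cidea (r = 0.983), Mmachc for Plin2 (r = 0.972), Tspo for Plin3 (r = 0.985), Aox1 for Plin4 (r = 0.954), Dgkh for Xdh (r = 0.969) and Ptgs1 for Mfge8 (r = 0.968). Milk protein genes were among the first 3 for Btn1a1 and for none of the other 9 genes.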

How the data were processed

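The authors deposited raw counts of reads per Ensembl gene, 1 table for each library, and the submitters' processing notes name TopHat, HTSeq, DESeq2 and mm10. Not given in the sources used here are tool versions, the annotation, strandedness and the treatment of multiply matching reads. Per the labels' protocols, RNA came from an RNeasy Micro kit and cDNA was amplified (SMART-Seq v4 Ultra Low Input) and sequenced on an Illumina HiSeq. Amplified reads carry no molecular identifiers, so floors of 3 counts cover counting error only. Tables were joined (38924 genes, 0 rows without a gene, 0 columns unused) and named by GENCODE M21 (37607 symbols).

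The main test was edgeR 4.0.16's quasi-likelihood test (R 4.3.3, limma 3.58.1) on all 12 libraries with a mean per group, TMM factors and filterByExpr (minimum count 10, leaving 16953 genes and all 10 members), with Benjamini-Hochberg adjustment over all genes at 0.05. Comparisons over both lines weight the lines equally. Milk-scaled levels (0.5 counts added) and family shares used exact permutation tests, adjusted over 28 tests, in Python 3.11.15 with pandas 2.3.3, numpy 2.4.6, scipy 1.17.1 and matplotlib 3.10.9. Fits were tested on simulated data. DESeq2 1.42.0, other scalings and filters, fewer libraries and a replicate block were alternatives. Replicates are the labels' libraries, so p-values measure the spread between these libraries.

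The members, the 14 other lists and the tests were chosen with earlier results of these data known. All members are named, with up to 4 called genes of smallest adjusted p from each other list (otherwise the 2 of highest level, for which the text gives list counts only) and the 3 genes most similar to each member. Promoter windows came from RefSeq (GRCm38.p6).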

Additional observations from a re-analysis of the deposited data

Results flagged for a closer look

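In groups of 4 libraries, 1 library stood far from the others for 2 milk-scaled levels, out of 68 groups examined, of which chance marks about 1 in 20. Both were in GFP-negative myoepithelial cells, in the first Myf5 library, where Cidec and Plin1 held 0 counts. Its log2 ratio to the milk protein sum was -22.43 for each gene, a value that the 0.5 counts added there set.

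For 3 genes the labelled libraries lay on opposite sides of the unlabelled ones in the 2 lines. Of all tested genes, 11.8% lay above and 48.1% below the unlabelled libraries in the Ucp1 line, and 14.5% and 20.2% in the Myf5 line. The share of all genes on opposite sides was not counted. For Plin3 in the Myf5 line the nearest libraries were at 65.55 CPM (GFP-positive) and 65.43 CPM (GFP-negative). The difference of the label effect, Ucp1 line minus Myf5 line on the log2 scale, was 1.46 for Plin2 (adjusted p = 0.348), -1.64 for Plin3 (adjusted p = 0.201) and 1.38 for Xdh (adjusted p = 0.206), and none passed edgeR's test.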

How the results depend on the processing

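Of the 10 genes, the number called in the Ucp1 line (1) was 2 with DESeq2 and 0 with DESeq2's size factors, without a filter on low counts, without milk and mitochondrial genes and with the replicate block, and 0 to 2 when 1 library was left out. Over both lines (1) it was 4 with DESeq2, 0 with DESeq2's size factors, 0 with the replicate block, 0 to 3 without 1 library, and 0 in a fit on the 8 mammary libraries with the line as covariate, added after seeing the data, in which Cidea had an adjusted p of 0.339. Between the lines in brown adipocytes (0) it was 2 with DESeq2, 1 with only the groups compared, 1 without both Ucp1 GFP-positive libraries and 0 to 1 without 1 library. The label difference between lines (0) gave 0 to 1 without 1 library, the Myf5 line and the GFP-negative lines stayed at 0, and against brown adipocytes the counts were 8 to 10 (GFP-negative) and 10 to 10 (GFP-positive).

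The count over all genes was 0 in the Myf5 line (724 with DESeq2, 232 without both Ucp1 GFP-positive libraries, 0 to 217 without 1 library), 2423 in the Ucp1 line (4152 with DESeq2, 1293 to 4165), 1956 over both lines (3092 with DESeq2, 897 with only the groups compared, 0 with the covariate, 811 to 3842) and 1861 for the difference between lines (3096 with DESeq2, 1187 with only the groups compared, 949 to 3740). It was 4510 in GFP-negative cells against brown adipocytes (8227 with only the groups compared, 6886 without both Ucp1 GFP-positive libraries, 2008 to 6822), 6160 in GFP-positive cells (4056 to 8285), 223 between lines in brown adipocytes (1486 with DESeq2, 135 with DESeq2's size factors, 755 with only the groups compared, 76 with the replicate block, 929 without both Ucp1 GFP-positive libraries, 0 to 940) and 0 between lines in GFP-negative cells (43 with DESeq2).

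Samples that share a replicate number deviated together in the Myf5 line, with a correlation of 0.62 between GFP-positive and GFP-negative cells over 9207 genes. Elsewhere they did so little (-0.177 to 0.153), and the numbers were not taken to pair libraries across the groups. Whether they pair in the Myf5 line was not tested, and the tests treated those libraries as independent. The replicate block fitted 1 effect shared by all 6 groups. The replicate block turned 3 uncalled log2 differences, to -0.068 for Plin1 in the Ucp1 line, -0.010 for Xdh over both lines and -0.058 for Cidec between lines. Without 1 library, uncalled values changed sign for these genes: Plin1 (-5.20 to 8.90) and Plin4 (-1.29 to 2.53) in the Myf5 line, Plin1 (-6.94 to 2.70), Plin5 (-7.34 to 3.23) and Btn1a1 (-0.71 to 0.048) in the Ucp1 line, and Plin1 (-1.74 to 5.30) and Xdh (-0.24 to 0.26) over both. The same held for Cidea (-0.026 to 0.82), Cidec (-6.28 to 2.13), Plin1 (-10.62 to 6.91) and Plin5 (-14.85 to 2.23) between lines, for Plin2 (-1.34 to 0.45) and Plin3 (-1.03 to 0.34) in brown adipocytes, and for Cidea (-0.58 to 0.17), Plin2 (-0.59 to 0.52), Plin4 (-1.66 to 2.16) and Mfge8 (-0.18 to 0.63) in GFP-negative cells. The cause was not tested. With DESeq2's size factors the median of all genes moved by over 0.1 in 3 comparisons, to -0.51 in the Ucp1 line, -0.29 over both lines and 0.11 in GFP-negative cells against brown adipocytes. No alternative brought a milk-scaled level or share past the adjustment, and at 0 counts in 1 of 2 libraries depth set the size of the Plin1 and Plin5 label differences.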
